A study of Mus musculus with 12 samples.

Results

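Trimethylation of histone H3 at lysine 27 (H3K27me3) was measured by chromatin immunoprecipitation with sequencing (ChIP-seq) in mouse embryonic stem cells. These 6 libraries, of 12 in the study, were chosen by their antibody label. There were 3 libraries from cells carrying an empty expression vector and 3 from cells that express netrin-1 from a transgene in that vector. The labels call the vector libraries WT. Both lines were grown in serum with LIF, and both were stably transfected with the plasmid labelled ppy-cagg-ires-puro, so the control cells carry the vector too. One Diagenode antibody was used throughout. The labels give neither the parental line, nor the number of clones or pools behind each line, nor whether the 3 libraries of a line came from separate cultures. The p-values thus reflect no more than the variation among these libraries, which could be technical. No gene level is held in the tables, so the cell type label and the expression of netrin-1 could not be checked.

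H3K27me3 is written by Polycomb repressive complex 2, whose catalytic subunit is EZH2 or EZH1, and is bound by Polycomb repressive complex 1. In embryonic stem cells it covers CpG-rich promoters of silent developmental genes, where it often lies together with H3K4me3, the mark of CpG-rich and active promoters. Such sites are called bivalent, and many lose one of the marks when cells differentiate. Netrin-1 is a secreted, laminin-related ligand of the receptors DCC, neogenin and the UNC5 family, known from axon guidance and from the control of cell survival. The series title names netrin-1 signalling in pluripotent cells, and its design text a comparison of these marks between the lines.

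Each value is coverage per site, averaged over all sites of a class at a given distance from the site centre. The sites called serum bivalent by the table name (bivalent below) were described in 801 bins of 10 bp out to 4000 bp. The H3K27me3 sites that the other table name calls not bivalent (non-bivalent below) were described in 251 bins of 200 bp out to 25000 bp. The tables hold averages, so no site, gene or sequence can be named, and no tag count is given. Within a column, 100% of the values were whole multiples of 1 step, to within 0.02 of a step. The step is what the smallest counted unit is worth after the authors' scaling. It was 4.24 times larger in the bivalent table than in the non-bivalent one in each of the 6 libraries, so a library was scaled alike in both. The steps differed by at most 1.18 times between libraries, and the largest was that of netrin-1 replicate 3. Under scaling to a common library size, a larger step goes with a smaller library. No input or spike-in library is among the 12 samples, so the values are relative to each library's own scaling. Where 3 values are given for a line, they are those of replicates 1, 2 and 3 in that order.

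At bivalent sites, H3K27me3 coverage over the whole range from -4000 to 4000 bp was about 1.93 times as high in netrin-1 cells as in vector cells. The vector libraries were at 2.28, 2.17 and 2.58 and the netrin-1 libraries at 3.49, 4.26 and 5.83. All netrin-1 libraries lay above all vector libraries, and netrin-1 replicate 3 stood highest. The means were 2.34 ± 0.216 (SD, n = 3) and 4.52 ± 1.19 (SD, n = 3), a log2 ratio of 0.95. The two-sided exact permutation test gave p = 0.1, the lowest value possible for groups of 3, and 0.125 with Benjamini-Hochberg adjustment over 10 comparisons. By this test, no comparison of 3 with 3 can pass 0.05. Each netrin-1 library exceeded each vector library in 801 of 801 bins (100% of the bins), neighbouring bins sharing fragments. The groups came closest at 3980 bp, where the lowest netrin-1 library was 4.95% above the highest vector library. They lay farthest apart at 20 bp, where the same comparison gave 1.74 times.

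**Figure D1:**
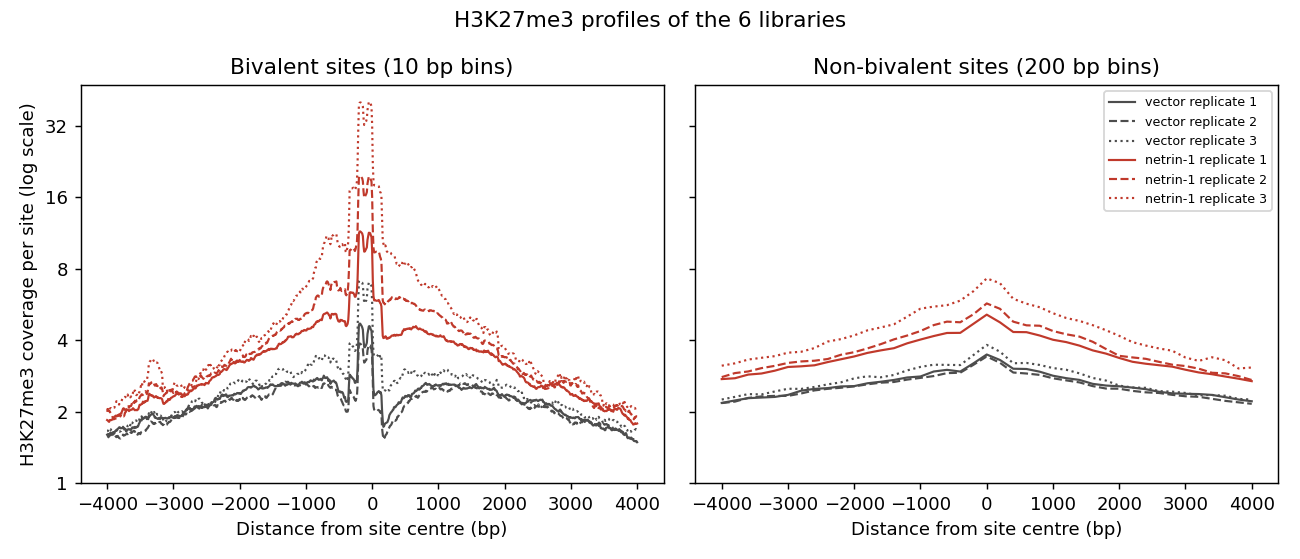
H3K27me3 coverage per site (vertical axis, log scale) against distance from the site centre (bp) at bivalent sites in 10 bp bins and at non-bivalent sites in 200 bp bins. Each line is 1 library, grey for vector and red for netrin-1, and all 3 red lines lie above all 3 grey lines at every distance in both panels.

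The excess at bivalent sites was steepest near the centre. Within 250 bp, the vector libraries were at 3.16, 2.69 and 4.69 and the netrin-1 libraries at 7.72, 12.7 and 25.0. The ratio of the means was 4.31 there. From 250 to 500 bp the vector libraries were at 2.32, 2.06 and 2.97 and the netrin-1 libraries at 4.81, 6.90 and 10.9, a ratio of 3.08. From 500 to 1000 bp the ratio was 2.31, from 1000 to 2000 bp 1.64 and from 2000 to 3000 bp 1.31. From 3000 to 4000 bp the vector libraries were at 1.75, 1.70 and 1.83 and the netrin-1 libraries at 2.10, 2.22 and 2.43, a ratio of 1.28. The groups stayed apart in each of these ranges (p = 0.1 for each by the exact permutation test). Adjusted for the 64 tests of ranges and sides, ranges of H3K4me3 included, each p was 0.108. The netrin-1 library nearest to the vector level, replicate 1, still had 2.20 times the vector mean within 250 bp.

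The dependence on distance was then described by quotients within libraries, in which any scaling factor of a library cancels. A background level that differs between libraries does not cancel, here or in the quotients of the site classes below, and was not measured. In vector cells, the log2 ratio of coverage within 1000 bp to coverage from 3000 to 4000 bp was 0.60, 0.50 and 0.92. In netrin-1 cells it was 1.37, 1.81 and 2.42. All netrin-1 libraries were thus more concentrated at the centre than any vector library. The log2 ratio of netrin-1 to vector within 1000 bp exceeded that from 3000 to 4000 bp by 1.27 (p = 0.1 by the exact permutation test, 0.125 adjusted). That value is built on group means, in which the scaling of single libraries does not fully cancel. From the mean of the libraries' own log2 values, where scaling cancels, it was 1.19 (exact permutation p = 0.1). The difference from group means fell to 0.92 without netrin-1 replicate 3. With only the bins from 500 to 1000 bp as the centre it was 0.85 (exact permutation p = 0.1).

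The form of the bivalent profile beside the centre differed between the lines as well. In vector cells, coverage dipped next to the central maximum. The lowest bin between 150 and 1000 bp on the positive side was at 170 bp in vector replicates 1 and 2 and at 230 bp in replicate 3. Coverage there was 1.73, 1.53 and 2.42, below each library's own mean from 1000 to 2000 bp (2.54, 2.46 and 2.79). In netrin-1 cells no bin between 150 and 1000 bp on that side was below the library's mean from 1000 to 2000 bp. The lowest was 1.09 times that mean in replicate 1, 1.23 times in replicate 2 and 1.36 times in replicate 3. In netrin-1 replicate 1 this lowest bin was at 220 bp, close to its place in vector cells. Coverage there was 4.06, against a mean of 4.38 from 500 to 1000 bp on that side, so this library dipped too. In netrin-1 replicates 2 and 3 the lowest bin was at 1000 bp, the end of the stretch. Between 350 and 1000 bp on both sides, the mean was 0.993, 0.961 and 1.09 times that from 1000 to 2000 bp in the vector libraries. In netrin-1 cells it was 1.23, 1.42 and 1.74 times. By these means, vector replicates 1 and 2 were near level between the stretches. Vector replicate 3 and all netrin-1 libraries were higher in the nearer stretch, vector replicate 3 least so. These measures were chosen after the profiles had been seen and were not tested.

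**Figure D2:**
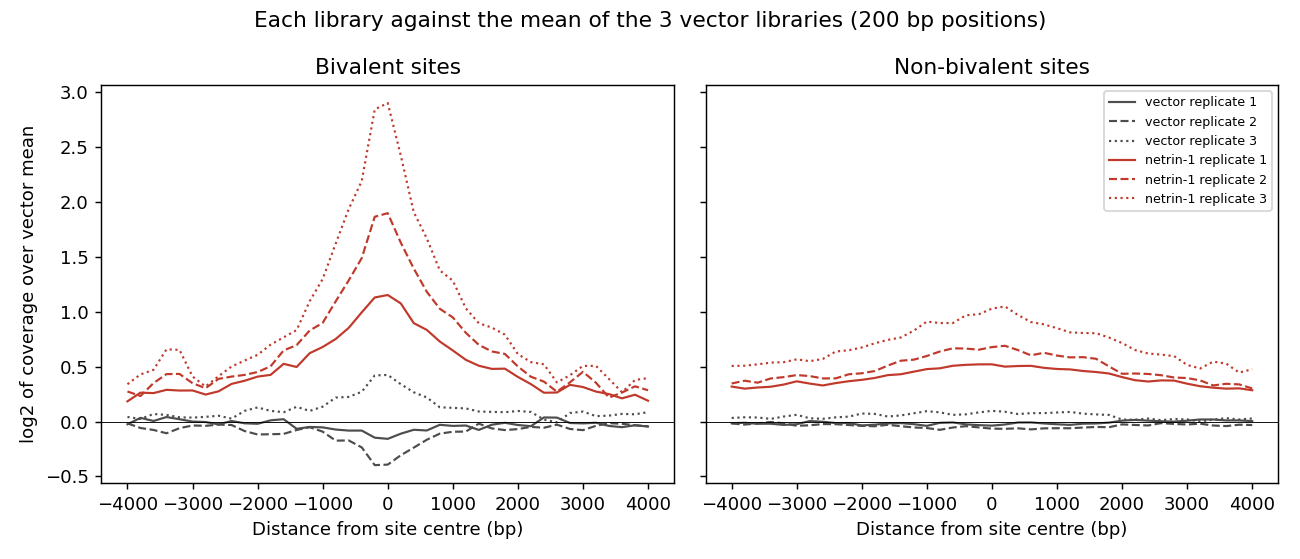
The log2 ratio of each library to the mean of the 3 vector libraries (vertical axis) against distance from the site centre (bp), at 200 bp positions, for bivalent and non-bivalent sites. The red netrin-1 lines form a peak over bivalent centres and a low dome over non-bivalent ones, and the grey vector lines spread most at bivalent centres.

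The bivalent profile carried a narrow central feature with a pair of summits, near -190 and -50 bp, in every library. At -190 bp the vector libraries were at 4.70, 3.88 and 7.13 and the netrin-1 libraries at 11.5, 19.7 and 39.9. Between the summits, at -110 or -120 bp, coverage dropped to 3.73, 3.22 and 5.73 in vector cells and to 9.44, 15.9 and 32.2 in netrin-1 cells. The bins from -350 to 150 bp averaged 1.28, 1.14 and 1.58 times the coverage from 500 to 1000 bp in the vector libraries. In netrin-1 cells they averaged 1.74, 2.25 and 3.14 times. These bins are 6.37% of all bins and held 24.3%, 31.8% and 40.7% of the excess of the netrin-1 libraries over the vector mean. Most of the excess thus lay outside the narrow feature in each library. Without these bins, the log2 ratio over the range was 0.74 (exact permutation p = 0.1).

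The negative and positive sides of bivalent sites were compared next. The labels do not say whether sites were oriented. Coverage on the negative side was 1.09, 1.06 and 1.12 times that on the positive side in the vector libraries, and 1.14, 1.21 and 1.36 times in the netrin-1 libraries. The log2 ratio of netrin-1 to vector was higher on the negative side by 0.20 (p = 0.1 by the exact permutation test, 0.125 adjusted). Without netrin-1 replicate 3 the difference was 0.11 (exact permutation p = 0.2), and this p was also 0.2 without vector replicate 1, 2 or 3. With the bins from -350 to 150 bp left out the difference was -0.012 (exact permutation p = 0.4). That cut takes more of the steep central bins from the negative side than from the positive side. A cut of all bins up to 350 bp on both sides was added after seeing the data. The difference was then 0.05 (exact permutation p = 0.1). Each netrin-1 library kept a higher quotient of the sides, from 1.04 to 1.09, than each vector library, from 1.01 to 1.03. By distance, the log2 ratio was 1.72 on the negative and 1.50 on the positive side from 250 to 500 bp, and 1.26 and 1.14 from 500 to 1000 bp. The sides were at 0.71 and 0.72 from 1000 to 2000 bp, at 0.39 each from 2000 to 3000 bp, and at 0.39 and 0.32 from 3000 to 4000 bp. At non-bivalent sites the sides differed by -0.0056 (exact permutation p = 0.5), and the ratio of the sides lay between 0.997 and 1.01 in all 6 libraries.

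Non-bivalent H3K27me3 sites showed a smaller and broader excess. Over the same range from -4000 to 4000 bp, the vector libraries were at 2.62, 2.57 and 2.75 and the netrin-1 libraries at 3.52, 3.76 and 4.42. The groups did not overlap, and netrin-1 replicate 3 was again highest. The means were 2.65 ± 0.090 (SD, n = 3) and 3.90 ± 0.463 (SD, n = 3), a ratio of 1.47, or 0.56 on the log2 scale (p = 0.1 by the exact permutation test, 0.125 adjusted). Within 250 bp the ratio was 1.68, from 1000 to 2000 bp it was 1.53 and from 3000 to 4000 bp it was 1.33. The log2 ratio within 1000 bp exceeded that from 3000 to 4000 bp by 0.31 (p = 0.1 by the exact permutation test, 0.125 adjusted), and by 0.23 without netrin-1 replicate 3. In all 6 libraries the highest 200 bp bin was at 0 bp. Bins of this width could not show a pair of summits as close as that at bivalent sites.

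The non-bivalent excess reached the edge of the table. From 4000 to 6000 bp the vector libraries were at 2.13, 2.09 and 2.17 and the netrin-1 libraries at 2.60, 2.66 and 2.96, a ratio of 1.29. The ratio was 1.22 from 6000 to 10000 bp, 1.21 from 10000 to 15000 bp and 1.16 from 15000 to 20000 bp. From 20000 to 25000 bp the vector libraries were at 1.48, 1.45 and 1.49 and the netrin-1 libraries at 1.63, 1.63 and 1.72, a ratio of 1.13. Over all bins beyond 4000 bp the log2 ratio was 0.25 (p = 0.1 by the exact permutation test, 0.125 adjusted). Each netrin-1 library exceeded each vector library in 251 of 251 bins (100% of the bins). At 24000 bp, however, the lowest netrin-1 library was only 0.683% above the highest vector library. The ratio of 1.13 at the edge was no larger than the widest difference in step between libraries, 1.18 times, so it depends on how the libraries were scaled. Vector coverage was itself still declining there, with a mean of 1.57 from 15000 to 20000 bp and 1.47 from 20000 to 25000 bp.

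**Figure D3:**
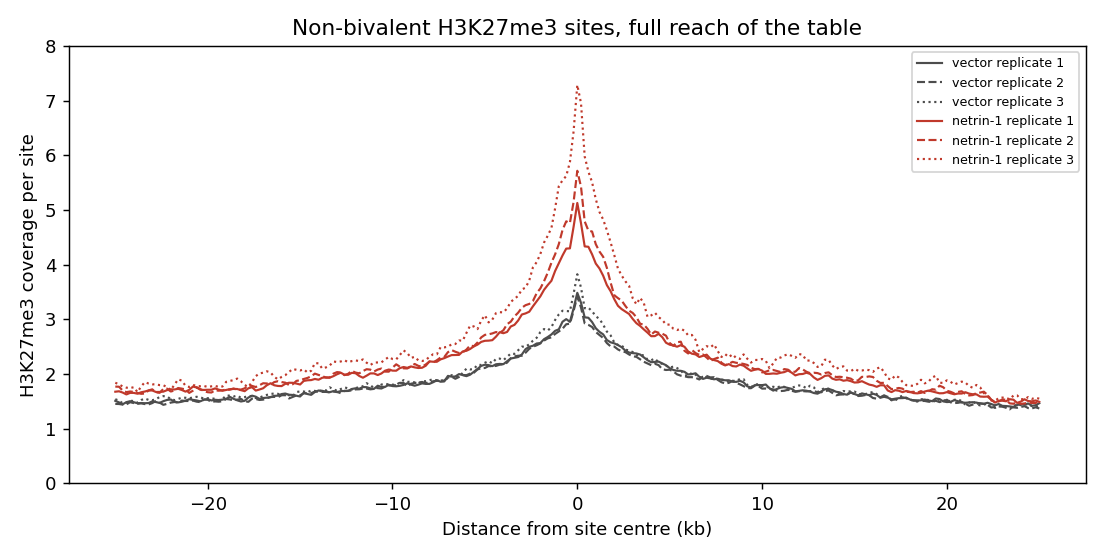
H3K27me3 coverage per site (vertical axis) against distance from the centre of non-bivalent sites (kb), out to 25 kb on each side. Each line is 1 library, and the red netrin-1 lines stay above the grey vector lines out to the edge, with the gap narrowing from a ratio of 1.68 within 250 bp to 1.13 beyond 20 kb.

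The site classes were compared inside each library at matched distances, with the bivalent bins averaged to the 200 bp positions of the other table. How sites were chosen and centred is not stated, so an equal distance need not be a like position in the classes. Over the shared range, the log2 ratio of netrin-1 to vector was higher at bivalent sites by 0.38 (p = 0.1 by the exact permutation test, 0.125 adjusted). The difference was 0.26 without netrin-1 replicate 3, and the exact permutation test then gave p = 0.2. This p was also 0.2 without vector replicate 1, 2 or 3. With the bins from -350 to 150 bp left out, the difference was 0.20. In the vector libraries, bivalent coverage divided by non-bivalent coverage gave log2 values of -0.21, -0.26 and -0.10. In the netrin-1 libraries the same quotient gave -0.03, 0.16 and 0.38. The vector libraries thus had less H3K27me3 coverage over the range at bivalent than at non-bivalent sites, and netrin-1 replicates 2 and 3 had more.

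The class difference changed with distance, from higher log2 ratios at bivalent sites near the centre to slightly lower ones farther out. Up to 500 bp, the log2 ratio of netrin-1 to vector was 1.92 at bivalent and 0.74 at non-bivalent sites, a difference of 1.18. From 500 to 1000 bp the difference was 0.56, and 0.15 from 1000 to 2000 bp (p = 0.1 for each of the 3 ranges by the exact permutation test, 0.125 when adjusted over 5 ranges). The difference from 2000 to 3000 bp was -0.07, with log2 ratios of 0.41 at bivalent and 0.48 at non-bivalent sites, and the groups overlapped (exact permutation p = 0.2). From 3000 to 4000 bp it was -0.05, with log2 ratios of 0.35 and 0.40. There, the log2 quotient of the classes was -0.39, -0.41 and -0.36 in the vector libraries and -0.45, -0.41 and -0.44 in the netrin-1 libraries (p = 0.1 by the exact permutation test, 0.125 adjusted). This p was 0.2 without vector replicate 3, or without netrin-1 replicate 1, 2 or 3. Without netrin-1 replicate 3, the exact permutation p was also 0.2 up to 500 bp and from 500 to 1000 bp. Up to 500 bp it was 0.2 without netrin-1 replicate 2 too. The direction of the difference held in each case. Taken at each of 21 distances, the netrin-1 libraries all lay above the vector libraries at the 9 distances from 0 to 1600 bp. They overlapped at 6 distances and all lay below at 6 distances between 2400 and 4000 bp. The steepness of the decline from the centre to 3000 to 4000 bp also differed between the classes, by 0.96 on the log2 scale (p = 0.1 by the exact permutation test, 0.125 adjusted). That difference was 0.69 without netrin-1 replicate 3, and 0.57 with the bins from 500 to 1000 bp as the centre.

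**Figure D4:**
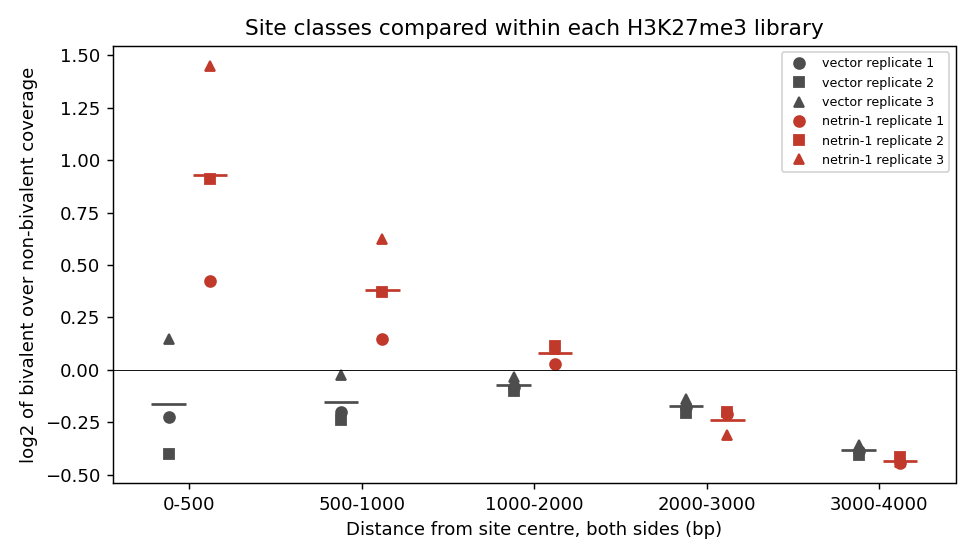
Bivalent over non-bivalent H3K27me3 coverage as a log2 value within each library (vertical axis) in 5 ranges of distance from the site centre (bp). Points are libraries, grey for vector and red for netrin-1, and short lines are group means. The groups stand apart up to 2000 bp, with netrin-1 higher, overlap from 2000 to 3000 bp, and lie close together from 3000 to 4000 bp, with netrin-1 lower.

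Equal vector coverage did not go with an equal excess in the classes. At positions where the mean vector coverage lay from 2.0 to 2.4, netrin-1 coverage was 1.65 times the vector mean at bivalent sites (11 positions) and 1.33 times at non-bivalent sites (13 positions). From 2.4 to 2.8 the ratios were 1.86 (14 positions) and 1.44 (15 positions). By netrin-1 library, the bivalent ratios were 1.53, 1.80 and 2.25. The non-bivalent ratios were 1.31, 1.38 and 1.61. Every netrin-1 library thus had the higher ratio at bivalent sites at this vector level. These are descriptions of positions within averaged profiles, which are not independent, and positions of equal level differ in their distance from the centre.

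The excess over the vector mean was also divided by where it lay. Within 1000 bp of bivalent centres, which is 26.8% of the positions, lay 59.4%, 67.4% and 75.4% of the excess of the netrin-1 libraries in the shared range. At non-bivalent sites the same positions held 39.3%, 42.1% and 43.3%. In all 3 libraries the bivalent excess was the more central. Over the whole non-bivalent table, 41.0%, 43.9% and 44.0% of the excess lay within 4000 bp, 16.3% of the bins. The remaining excess was spread over the outer bins. The log2 ratio to the vector mean fell to 50% of its value at the centre by 1400, 1000 and 1000 bp around bivalent centres in the netrin-1 libraries. Around non-bivalent centres it did so by 6400, 4000 and 3200 bp.

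**Figure D5:**
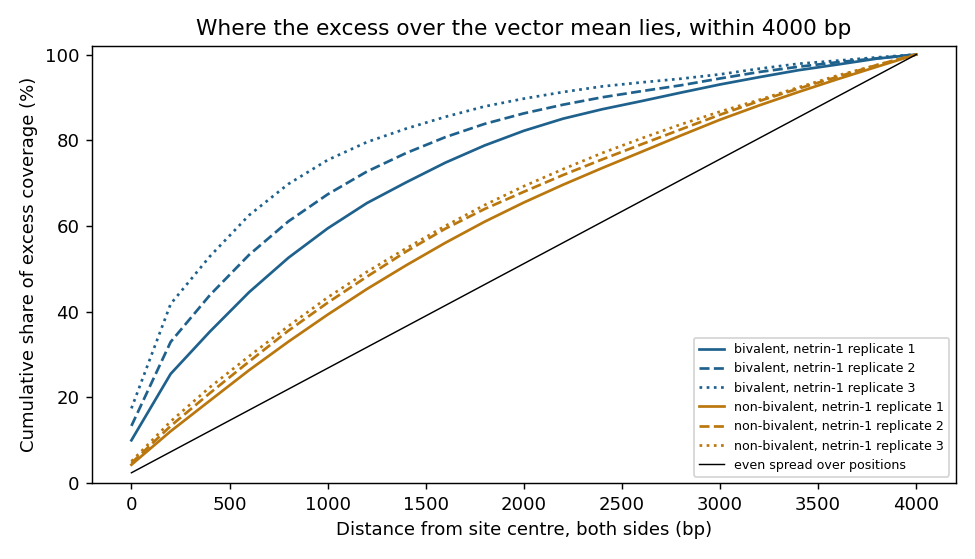
Cumulative share (%) of the excess of each netrin-1 library over the vector mean within 4000 bp (vertical axis) against distance from the site centre (bp). Blue lines are bivalent and ochre lines non-bivalent sites, and the black line shows an even spread. All 3 blue lines lie above all ochre lines, with 59.4% to 75.4% against 39.3% to 43.3% reached at 1000 bp.

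The libraries of a group differed most where the groups differed most. Within 250 bp of bivalent centres the highest netrin-1 library had 3.24 times the coverage of the lowest, and the highest vector library 1.75 times. From 3000 to 4000 bp these spans were 1.16 and 1.08 times. At non-bivalent sites they were 1.42 and 1.11 times within 250 bp and 1.06 and 1.03 times from 20000 to 25000 bp. Netrin-1 replicate 3 was the highest netrin-1 library in 95.8% of bivalent and 97.2% of non-bivalent bins. Vector replicate 3 was the highest vector library in 91.8% and 74.1%. Vector replicate 3 had 1.60 times the mean of vector replicates 1 and 2 within 250 bp of bivalent centres and 1.06 times from 3000 to 4000 bp, so its excess over its own group also had its highest value at the centre. The ratio of the mean of netrin-1 replicates 1 and 2 to the mean of all vector libraries was 2.91 within 250 bp and 1.23 from 3000 to 4000 bp. The labels name no batch.

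Each library was also divided by its own coverage from 3500 to 4000 bp, which sets the groups equal there. At bivalent sites, netrin-1 libraries then all lay above vector libraries in 580 of 801 bins, among them each bin up to 2000 bp, and all below in 9 bins. At non-bivalent sites they lay above in 32 of 251 bins, and each of these was within 4000 bp. They lay below in 194 bins, each of them at 4000 bp or farther. From 20000 to 25000 bp the non-bivalent coverage was 0.657, 0.657 and 0.649 of the level at 3500 to 4000 bp in the vector libraries. It was 0.586, 0.571 and 0.543 in the netrin-1 libraries. Relative to that level, the netrin-1 profiles were thus higher at the centre and lower at the edge than the vector profiles.

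H3K27me3 was last set beside H3K4me3 at the same bivalent sites, profiled in 3 vector and 3 netrin-1 libraries of the same lines. For H3K4me3, every netrin-1 library exceeded every vector library in 382 of 801 bins (47.7% of the bins). Of these bins, 124 lay from 1000 to 2000 bp, 140 from 2000 to 3000 bp and 118 from 3000 to 4000 bp. None lay nearer to the centre than 1000 bp. Over the whole range, the vector libraries were at 2.78, 2.67 and 4.75 and the netrin-1 libraries at 4.02, 5.12 and 5.10, with vector replicate 3 above netrin-1 replicate 1. The log2 ratio of netrin-1 to vector was 0.95 for H3K27me3 and 0.48 for H3K4me3, a difference of 0.47. The exact test, with labels permuted separately in the marks, gave p = 0.485 (400 arrangements, adjusted p = 0.5). Within 250 bp the log2 ratios were 2.11 and 0.51 (exact permutation p = 0.23), and from 3000 to 4000 bp they were 0.35 and 0.24 (exact permutation p = 0.62). Adjusted over 6 ranges, each p was 0.62. With the H3K4me3 values as they are, this test could not give a p below 0.09 in any of these ranges, nor below 0.095 over the whole range, however large the H3K27me3 difference. Whether the marks differed was therefore not resolved by it. Without H3K4me3 vector replicate 3 the difference over the range was 0.15.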

How the data were processed

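Per the submitters' processing notes, reads were handled with BWA, Picard, MACS2 and HOMER on the mouse build mm9. No version is given there, and the sources used here do not state how sites were chosen, duplicates treated or coverage scaled. The authors deposited coverage signal per library, averaged over sites in bins, with replicates not pooled per the file headers. The tables hold coverage columns only, so tags by strand were not analysed here. H3K4me3 at non-bivalent sites was not used.

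Mean coverage per library was computed over distance ranges with Python 3.11.15 and numpy 2.4.6. Bins from a range's lower edge up to, but not including, its upper edge were used, except at the edge of a table. For comparisons between site classes, 10 bp bins within 100 bp of each 200 bp position were averaged. Log2 ratios of group means, with no pseudocount, were tested by two-sided exact permutation of library labels (20 arrangements, or 400 within both marks). The procedure was tested on simulated libraries with small and equal noise in both groups. The H3K27me3 groups here differed in spread, so the simulation does not cover that setting. No 2 H3K27me3 columns shared a value in any bin. The table gives no counts, so no counting interval is given.

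Same-numbered libraries deviated together from their group means across bins, with correlations of 0.891, 0.954 and 0.976 at bivalent and 0.515, 0.646 and 0.840 at non-bivalent sites for replicates 1, 2 and 3. As all exceeded 0.1, same-numbered libraries formed pairs in an alternative test. This pairing comes from the values, not the design. Vector replicate 2 with netrin-1 replicate 1 gave 0.971 at bivalent and 0.794 at non-bivalent sites. Vector replicate 1 with netrin-1 replicate 2 gave 0.863 and 0.421. The threshold of 0.1 thus does not tell same-numbered from crossed pairs of replicates 1 and 2. The libraries, ranges and tests were chosen with earlier results of these data known. No gene is named, because the tables hold none.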

Additional observations from a re-analysis of the deposited data

How the results depend on the processing

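Of 303 recomputed values, 301 kept their direction and their side of 0.05, or, for counts of bins, stayed within 1.5 times. With 3 libraries against 3 no p of the exact permutation test could pass 0.05, so this says little about significance. The exceptions were the side difference at bivalent sites (-0.012 without the bins from -350 to 150 bp, an uneven cut, against 0.05 with 350 bp left out on both sides, an alternative added after seeing the data) and the count of non-overlapping non-bivalent bins (32 of 251 after division by the level at 3500 to 4000 bp). That division sets the groups equal at this distance by construction. With any 1 library left out, the log2 ratios were 0.73 to 1.11 at bivalent and 0.46 to 0.63 at non-bivalent sites, and 0.21 to 0.28 beyond 4000 bp. The class difference ranged from 0.26 to 0.47. The lowest of each of these ranges was without netrin-1 replicate 3. The side difference at bivalent sites ranged from 0.11 to 0.25, and the difference between marks from 0.15 to 0.62. With the replicate block the log2 ratios were 0.92 and 0.55, the value beyond 4000 bp was 0.25, and the class difference was 0.36, each with an exact sign-flip p of 0.25, the smallest that 3 pairs allow. The block changed no direction. After subtraction of the level at 3500 to 4000 bp the log2 ratios were 1.88 and 1.28, and after division by it 0.64 and 0.17. The alternatives for single distance ranges were added after seeing the data. Alternatives on tags by strand were not run.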

Other observations

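One local elevation lay apart from the centre of bivalent sites. It was measured after it had been seen in the profiles, and was not tested. From -3400 to -3200 bp, the vector libraries were at 1.90, 1.78 and 1.95 and the netrin-1 libraries at 2.31, 2.58 and 3.16, in the order of their replicate numbers. Relative to the mean of the neighbouring stretches (-3800 to -3600 bp and -3000 to -2800 bp), this was 1.05, 1.01 and 1.05 times in vector cells and 1.05, 1.17 and 1.30 times in netrin-1 cells. The elevation was thus seen in netrin-1 replicates 2 and 3, while netrin-1 replicate 1 was at the vector level. The table averages over sites, so how many sites carry it was not analysed here.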
